A study of Mus musculus with 2 samples.

Results

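The genes described here are those of the mouse whose symbol begins with Zfp followed by a digit, a naming group of zinc finger proteins. They were defined by symbol alone, from probe sets (groups of short probes against 1 transcript) that the annotation ties to exactly 1 gene symbol. No measured value enters this rule, but the genes were chosen with earlier results of these data known. They came to 173 genes, read by 254 probe sets, of the 12393 genes so represented on the array. RNA came from CD4+ T cells of the spleen, separated with magnetic beads. The mice had received glucose-6-phosphate isomerase (GPI), an antigen that causes arthritis in susceptible mice, and the cells were taken on day 7. The susceptible strain DBA/1 and the resistant strain C57BL/6 each contributed 1 array, and both had been immunised, so no unimmunised animal stands beside them. The labels used here do not state age, sex, any further allele or treatment, or how many mice stand behind each array.

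A zinc finger is a short protein fold held together by a zinc ion. In most Zfp-named proteins the fingers are of the C2H2 kind, stand in a row and read DNA. Many such proteins also carry a KRAB domain, which recruits the corepressor Trim28 (KAP1) and with it the enzymes that place repressive histone methylation, often over retroelements, and their genes lie in tandem clusters that differ between mouse strains. Others have taken up different work: Zfp36 and its relatives use CCCH fingers to bind AU-rich stretches of mRNA and send cytokine mRNAs to decay, and a further group acts on ribosomes, splicing or the spindle.

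The 8 CD4 T cell markers were all over the median signal and summed to 10571 in DBA/1 and 11104 in C57BL/6. Cd4, Cd3e, Cd3d, Cd3g, Cd5 and Cd6 had log2 ratios of DBA/1 over C57BL/6 between -0.093 and 0.092, while Thy1 was at -0.54 and Trat1 at 0.38. Markers of other cells differed: all 10 measured neutrophil markers were higher in DBA/1 (summed signal 34129 against 10599), as were all 7 monocyte and macrophage markers (5264 against 2164) and 6 of the 7 measured B cell markers (1518 against 665, with Pax5 under the median on both arrays). All 5 CD8 T cell markers were higher in C57BL/6 (382 against 995). Of the 3 measured erythroid markers only Alas2 was over the median, and their sum was 199 in DBA/1 and 229 in C57BL/6. These lists moved with the strain that every comparison here rests on, and their part in the results was not tested. In mixed RNA of this kind fewer cells of a type and less RNA per cell cannot be told apart.

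Zfp-named genes tended to read lower in DBA/1 than in C57BL/6, against the run of the array. Whether the probes match the sequence of both strains equally was not tested. A lower signal in DBA/1 is therefore not shown to be a lower transcript level, here or for single genes below. A gene was given a ratio where at least 1 signal lay over its array's median (37.6 in DBA/1 and 38.04 in C57BL/6), with lower signals raised to that median, and 91 of the 173 met this. Of these, 55 were higher in C57BL/6 and 36 in DBA/1, so that 60.4% lay on the C57BL/6 side. Of all 6936 genes with a ratio, 39.4% were higher in C57BL/6 and 60.6% in DBA/1. Probe sets that name a Zfp gene together with other genes were left out. Of the 10 such probe sets with a signal over the median, 9 were higher in DBA/1. The median log2 ratio of DBA/1 over C57BL/6 was -0.16 for the Zfp-named genes and 0.10 for all genes. Beyond 2-fold the counts were 6 higher in C57BL/6 and 1 higher in DBA/1. Among all genes 1.90% were at least 2-fold higher in C57BL/6 and 3.84% at least 2-fold higher in DBA/1, and among the Zfp-named genes the shares were 6.59% and 1.10%. At 1.5-fold, 13 were higher in C57BL/6 (14.3%, against 5.97% of all genes) and 4 in DBA/1 (4.40%, against 11.8%). After rescaling, the 2-fold split was 7 to 0 with median centring and 7 to 1 with quantile normalization or lowess, and 67.0% to 69.2% of the Zfp-named genes then lay on the C57BL/6 side, against 47.6% to 48.3% of all genes.

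**Figure D1:**
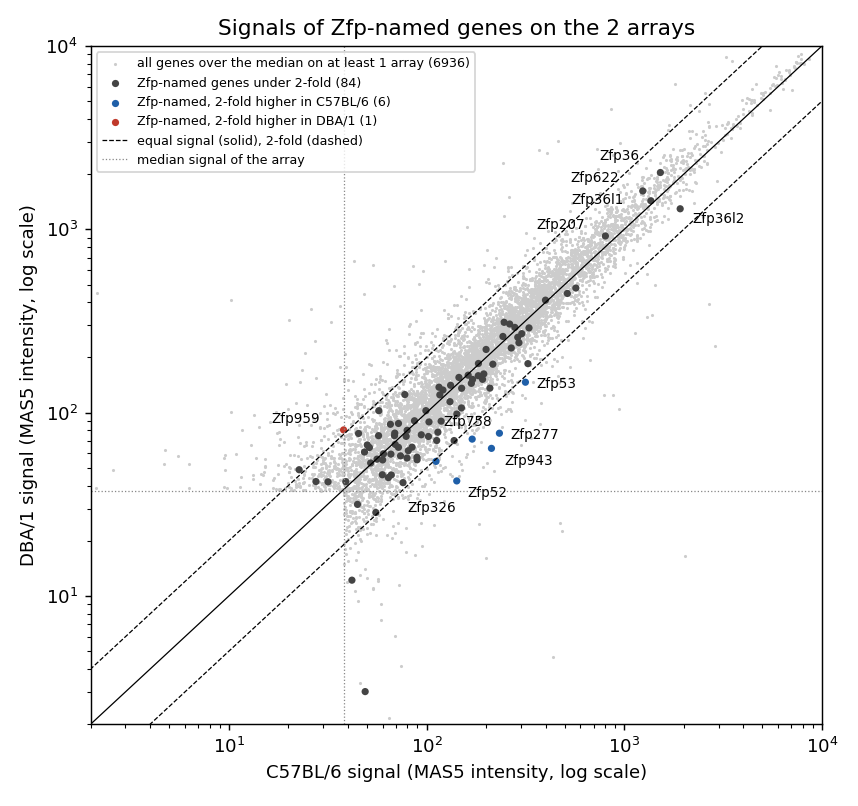
Signal of each gene on the C57BL/6 array (horizontal) and the DBA/1 array (vertical), both as MAS5 intensity on log scales, with grey points for all 6936 genes over the array median on at least 1 array. Of the 91 Zfp-named genes, 6 (blue) and 1 (red) are 2-fold apart, the brightest, such as Zfp36, lie inside both dashed lines, and Zfp33b, Zfp395 and Zfp930 lie outside only through a signal under the median, which was raised for their ratios.

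With 1 array per strain there is no replicate error, no test and no p-value, and repeat measurement exists only where a gene has further probe sets. In 2325 genes that have such a pair, each above both array medians, the paired log2 ratios differed with an SD of 0.43, or 0.31 per probe set. This spread is called probe error here. It holds whatever makes the paired probe sets of a gene differ between these arrays, and does not cover differences between mice or repeat arrays. The ratio of a single gene under about this size is therefore within probe error. The 0.31 is 1 SD and not a limit, so probe error alone also gives larger ratios, and the widest pair differed by 4.84. The number of arrays limits the precision of every value.

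**Figure D2:**
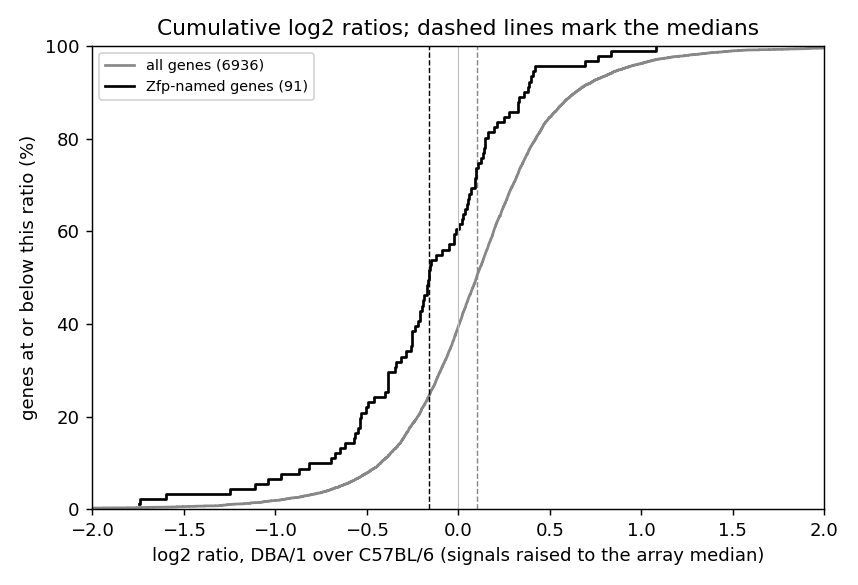
Share of genes (vertical, in percent) at or below each log2 ratio of DBA/1 over C57BL/6 (horizontal), for the 91 Zfp-named genes in black and all 6936 genes in grey. The Zfp-named curve lies to the left, with its median at -0.16 against 0.10.

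The distance from all genes was smaller among the brightest signals than among dim and middling ones. When all genes with a ratio were split into 3 equal groups of 2312 by their mean signal, 50 Zfp-named genes fell in the dimmest group with a median log2 ratio of -0.14 (0.047 for all genes there), and 29 in the middle group with -0.20 (0.096 for all). The 12 in the brightest group had a median of 0.050, against 0.14 for all, with 41.7% higher in C57BL/6 against 33.5%. Zfp-named genes were less often bright: 32 of 173, or 18.5%, reached the 75th percentile of an array (171 in DBA/1 and 162 in C57BL/6), against 31.6% of all genes. Of these 32, 21 were higher in C57BL/6 and 11 in DBA/1, where 36.5% and 63.5% of all genes as bright lay. The median log2 ratio of the 32 was -0.19, against 0.13 for all genes as bright. That distance was -0.32, against -0.26 over all Zfp-named genes with a ratio. At least 2-fold, 4 were higher in C57BL/6 (1.99% of all genes as bright) and 0 in DBA/1 (3.98%).

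The other 82 genes were under the median on both arrays in the probe set used for the gene and received no ratio. Those probe sets reached at most 34.4 in DBA/1 and 37.9 in C57BL/6. One of these genes, Zfp991, had another probe set at 6.76 in DBA/1 and 84.1 in C57BL/6, at least 2.24-fold higher in C57BL/6, while the one used read 32.9 and 18.2. The nearest to the limit on the inside were Zfp395 (12.2 in DBA/1 and 41.96 in C57BL/6) and Zfp90 (41.99 and 31.8). Just outside lay Zfp553 (31.3 and 37.8) and Zfp948 (12.6 and 37.9). Among the undetected were the pseudogene Zfp353-ps and the opposite-strand transcript Zfp85os.

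Several of the largest differences fell on neighbours. Zfp54, Zfp51, Zfp53 and Zfp52 follow one another without another protein-coding gene between them in the RefSeq gene order, and Zfp943 and Zfp758 belong to a second run nearby. The bases before the start of 3 genes of the first run are shown because these neighbours read in the same direction, those of Zfp943 and Zfp758 because they are near copies, and that of Zfp955a because it is shared base for base with Zfp955b, whose ratio differs. Zfp959 and Zfp277 are shown as the gene with the largest ratio in DBA/1 and as the large difference outside the runs, and Zfp36 as the brightest on the DBA/1 array. Each is the 250 bases before the annotated start, 5′ to 3′ on the gene's strand, from the RefSeq promoter table of build GRCm38.p6, a C57BL/6J assembly. Capitals mark CCGGAA or its reverse complement (the core that ETS factors bind) and CACGTG (an E-box). The sequence of the DBA/1 strain was not used here.
Zfp54: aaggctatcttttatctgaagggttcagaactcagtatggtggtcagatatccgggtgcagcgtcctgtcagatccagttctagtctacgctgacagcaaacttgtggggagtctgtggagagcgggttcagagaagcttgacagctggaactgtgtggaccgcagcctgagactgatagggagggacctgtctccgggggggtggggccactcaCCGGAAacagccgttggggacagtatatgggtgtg
Zfp53: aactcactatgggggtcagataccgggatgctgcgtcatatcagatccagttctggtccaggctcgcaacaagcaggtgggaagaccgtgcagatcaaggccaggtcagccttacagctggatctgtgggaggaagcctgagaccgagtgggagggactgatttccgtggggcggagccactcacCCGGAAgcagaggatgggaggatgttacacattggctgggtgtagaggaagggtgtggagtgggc
Zfp52: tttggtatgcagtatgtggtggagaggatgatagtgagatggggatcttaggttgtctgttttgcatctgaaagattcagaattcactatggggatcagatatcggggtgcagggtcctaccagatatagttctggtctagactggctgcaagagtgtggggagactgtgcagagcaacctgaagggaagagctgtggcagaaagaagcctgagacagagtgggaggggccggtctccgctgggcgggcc
Zfp943: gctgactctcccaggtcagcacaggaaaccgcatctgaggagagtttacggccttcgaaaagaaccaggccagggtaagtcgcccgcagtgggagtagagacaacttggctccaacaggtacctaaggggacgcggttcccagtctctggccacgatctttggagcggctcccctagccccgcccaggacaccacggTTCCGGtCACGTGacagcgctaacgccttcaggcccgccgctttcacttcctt
Zfp758: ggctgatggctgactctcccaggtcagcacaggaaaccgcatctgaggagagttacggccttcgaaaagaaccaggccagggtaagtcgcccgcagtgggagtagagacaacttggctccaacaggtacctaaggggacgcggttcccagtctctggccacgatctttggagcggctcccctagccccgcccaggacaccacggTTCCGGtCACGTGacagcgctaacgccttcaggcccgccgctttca
Zfp955a: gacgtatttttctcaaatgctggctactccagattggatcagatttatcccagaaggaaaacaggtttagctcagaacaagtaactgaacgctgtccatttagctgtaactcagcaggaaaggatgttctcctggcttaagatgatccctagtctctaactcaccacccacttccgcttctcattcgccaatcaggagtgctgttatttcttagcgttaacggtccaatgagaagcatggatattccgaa
Zfp959: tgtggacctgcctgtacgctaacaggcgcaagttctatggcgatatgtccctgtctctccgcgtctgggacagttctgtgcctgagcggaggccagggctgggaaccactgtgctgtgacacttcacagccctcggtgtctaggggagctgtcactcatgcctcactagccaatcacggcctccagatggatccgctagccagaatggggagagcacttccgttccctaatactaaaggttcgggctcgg
Zfp277: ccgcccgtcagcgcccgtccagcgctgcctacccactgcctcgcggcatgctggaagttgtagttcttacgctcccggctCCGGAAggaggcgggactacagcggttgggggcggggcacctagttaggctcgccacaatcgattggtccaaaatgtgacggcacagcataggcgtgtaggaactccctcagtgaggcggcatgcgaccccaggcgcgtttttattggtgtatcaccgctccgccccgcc
Zfp36: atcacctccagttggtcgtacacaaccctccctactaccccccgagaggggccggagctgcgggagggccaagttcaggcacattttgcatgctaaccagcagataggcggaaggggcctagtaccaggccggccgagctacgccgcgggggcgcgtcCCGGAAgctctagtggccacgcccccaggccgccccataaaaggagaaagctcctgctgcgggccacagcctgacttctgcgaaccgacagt

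These windows lie at chr17:21422977-21423226, chr17:21488738-21488987, chr17:21535289-21535538, chr17:21962309-21962558, chr17:22361213-22361462, chr17:33255146-33255395 and chr17:55891843-55892092, with Zfp277 at chr12:40445791-40446040 and Zfp36 at chr7:28379229-28379478. Zfp955a, Zfp277 and Zfp36 are on the minus strand and the others on the plus strand. Aligned end to end, the windows of Zfp943 and Zfp758 were 96.8% identical and those of Zfp955a and Zfp955b 100% identical, while the median over all 9591 pairs among the 139 Zfp-named genes in the table was 58% and their 99th percentile 63.6%. Within the first run, Zfp54 and Zfp53 were 69.2% identical, Zfp54 and Zfp52 64%, and Zfp53 and Zfp52 54%. Genes with near-identical copies may share probes. Which probes do so was not analysed here, so the values of such pairs are uncertain as measures of a single gene.

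In the first run every gene with a ratio read lower in DBA/1. Zfp54 read 31.6 in DBA/1, under the median, and 44.8 in C57BL/6, at least 1.19-fold higher in C57BL/6. Zfp51 read 70.5 and 112.6, a log2 ratio of -0.67. Zfp53 read 147 and 316, a 2.16-fold difference, and Zfp52 read 42.5 and 142, a 3.35-fold difference. The ratios thus lay on 1 side in all 4, and only Zfp53 reached the 75th percentile of an array. The fifth gene of the run, Zfp948, was under the median on both arrays. A second probe set of Zfp52 was under the median too, at 9.04 and 32.8. Within 10 protein-coding genes on either side, Ppp2r1a was the other gene with a ratio, at 0.097.

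In the second run the members did not go together. Zfp943 read 63.9 in DBA/1 and 213 in C57BL/6, 3.33-fold higher in C57BL/6, and Zfp758 read 71.8 and 170.2, 2.37-fold higher. Zfp942, next to Zfp943, read 138 and 116 and was 1.19-fold higher in DBA/1, and Zfp944, next to Zfp758, read 55.3 and 60.003. Zfp820 was undetected. Zfp942 and Zfp944, whose upstream windows are 89.6% identical to each other, thus differed by less than the probe error of a single gene, while Zfp943 and Zfp758, the other similar pair, both differed by more than 2-fold. A second probe set of Zfp943 was at 2.78 and 1.70, under the median on both arrays.

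Zfp955a and Zfp955b differed in sign in the probe sets used. Zfp955a read 106 in DBA/1 and 150.2 in C57BL/6, a log2 ratio of -0.50, and Zfp955b read 75.004 and 68.9, a log2 ratio of 0.12, with a second probe set at -0.47. Zfp81 of the same run was undetected and Zfp101 lay at -0.21. Zfp959 was the gene at least 2-fold higher in DBA/1, at 80.6 against 38.1, a 2.12-fold difference. Its C57BL/6 signal lay just over the median of that array. Its neighbour Zfp119a, 93.6% identical in the window before the start, was undetected at 7.90 and 8.54. All 7 other genes with a ratio within 10 protein-coding genes of this pair were also higher in DBA/1 (log2 ratios 0.045 to 0.96). Of all genes with a ratio 60.6% were higher in DBA/1, and whether these neighbours move together was not tested.

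**Figure D3:**
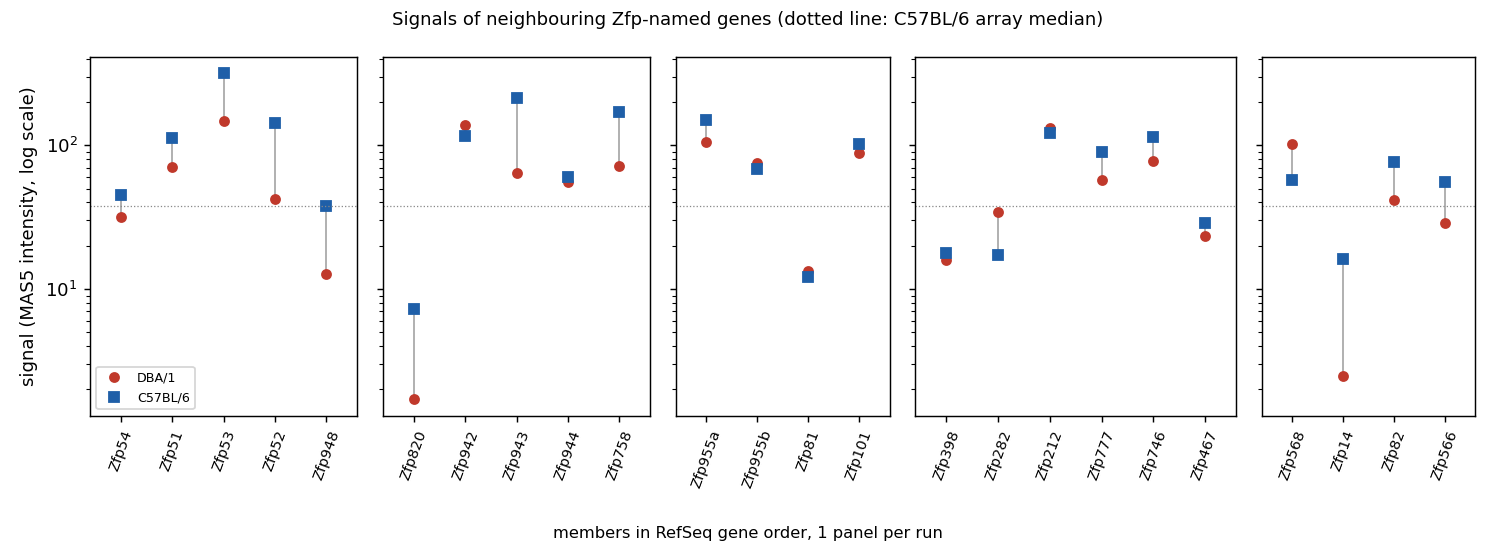
Signal (vertical, MAS5 intensity, log scale) of neighbouring Zfp-named genes on the DBA/1 array (red circles) and the C57BL/6 array (blue squares), 1 panel for each of 5 runs with at least 3 detected genes, in RefSeq gene order. Zfp54 to Zfp52 read lower in DBA/1 throughout, whereas in the other runs some pairs lie close together and Zfp568 is higher in DBA/1.

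Elsewhere neighbours mostly differed by less. Zfp777 (57.1 in DBA/1 and 89.5 in C57BL/6) and Zfp746 (78.3 and 114) were 1.57-fold and 1.46-fold higher in C57BL/6, while Zfp212 before them lay at 0.13. Zfp82 (41.6 and 76.1) was 1.83-fold and its neighbour Zfp566 (28.6 and 55.4) at least 1.48-fold higher in C57BL/6, whereas Zfp568 of the same run read 103 and 57.4, 1.79-fold higher in DBA/1. In all, 84 Zfp-named genes lay in 27 runs with at most 3 other protein-coding genes between successive members, and 41 of them had a ratio. The median log2 ratio was -0.21 within runs and -0.092 over the 50 genes outside them. The spread between genes was 0.58 (SD) within and 0.41 outside. Of the 7 genes beyond 2-fold, 6 were in runs, Zfp326 among them. Runs rest on gene order alone and were defined after the values were seen. Of 16 pairs of successive members that both had a ratio, 9 went in the same direction. The share among unrelated pairs was not worked out, so this count is a description only.

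Outside the runs the largest difference was that of Zfp277, a C2H2 protein that works with Polycomb proteins at the Ink4a/Arf locus. It read 77.3 in DBA/1 and 234 in C57BL/6, 3.02-fold higher in C57BL/6, and was at least 2-fold apart under all 9 alternative scalings, floors and probe set rules tried. Zfp326 and Zfp644, separated by 1 other gene, form a run of their own and were both lower in DBA/1. Zfp326, a subunit of the DBIRD complex that couples transcript elongation to splicing, read 54.3 and 112, a 2.06-fold difference. Zfp644, a partner of the histone methyltransferase G9a, read 70.5 and 138, a 1.96-fold difference, with a second probe set at 84.6 and 114 (log2 ratio -0.42). The 8 other genes with a ratio within 10 protein-coding genes of this pair had a median of -0.074 and ranged from -1.80 to 0.75.

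Each of the 7 genes beyond 2-fold rests on a single probe set over the median. Zfp277, Zfp53, Zfp758, Zfp326 and Zfp959 have no other on the array, and the second ones of Zfp52 and Zfp943 were undetected. When all of a gene's probe sets were averaged, Zfp52 fell to a log2 ratio of -0.88 and Zfp943 to -0.88. With the floor at the 60th percentile Zfp52 lay at -0.94, Zfp326 at -0.60 and Zfp959 at 0.15. With log2(signal + 32) Zfp53 lay at -0.96, Zfp758 at -0.96 and Zfp326 at -0.74. Zfp959 also fell under 2-fold there and with median centring. None of the 7 was thus supported by a second detected probe set.

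The brightest Zfp-named probe sets were those of the mRNA decay group and of a ribosome factor, and none of these was 2-fold apart. Signals of different probe sets do not order transcript levels, so each gene is compared with itself. Zfp36 (tristetraprolin), which binds AU-rich elements in cytokine mRNAs and recruits the CCR4-NOT deadenylase, read 2040 in DBA/1 and 1523 in C57BL/6, a log2 ratio of 0.42. Zfp36l1, a relative of the same binding mode, read 1431 and 1363, a ratio of 0.070, and its second probe set lay at 0.21. Zfp36l2, the other relative, read 1294 and 1918, a ratio of -0.57, and a second probe set was at least 1.65-fold higher in C57BL/6. Over the alternatives run, Zfp36 ranged from 0.25 to 0.42, with quantile normalization (0.25) and lowess (0.26) inside the probe error of 0.31. Zfp36l2 ranged from -0.73 to -0.44 and Zfp36l1 from -0.10 to 0.14. The difference of Zfp36l2 alone thus stayed past 1 SD of probe error throughout, which does not establish it.

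The partners of the Zfp36 proteins differed little. All 25 measured genes for deadenylation, decapping, the exosome, the upstream kinases and competing AU-rich binders had a ratio, with a median log2 ratio of 0.033. Of these, 15 were higher in DBA/1 and 10 in C57BL/6 (40.0%, against 39.4% of all genes), and none was beyond 2-fold. The largest were the 14-3-3 gene Ywhaq (0.62), the deadenylase subunit Cnot3 (-0.50), the decapping helicase Ddx6 (-0.48) and the kinase Mapk14 (p38, 0.45). Among mRNAs known to carry Zfp36 binding sites, 17 of 25 measured had a ratio, with a median of 0.36, against 0.10 for all genes. Of the 17, 11 were higher in DBA/1 and 6 in C57BL/6 (35.3%, against 39.4% of all genes), a split near that of all genes. Ier3 (97.7 and 45.0) was 2.17-fold and Ccl3 (115 and 58.4) 1.97-fold higher in DBA/1, Il21 (71.7 and 38.04, the latter at the array's median) was at least 1.89-fold higher in DBA/1, and Ifng (66.01 and 173) was 2.62-fold higher in C57BL/6. Monocyte and macrophage markers were higher in DBA/1 and CD8 T cell markers lower by the sums given above, and their part in these values was not tested.

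Among Zfp-named proteins that act on RNA, ribosomes or the spindle, 8 of 10 had a ratio, with a median of 0.059. Of the 8, 5 were higher in DBA/1 and 3 in C57BL/6 (37.5%, against 39.4% of all genes). Zfp622, an export factor of the large ribosomal subunit, read 1619 in DBA/1 and 1241 in C57BL/6, a log2 ratio of 0.38, but its second probe set read 213 and 229, a ratio of -0.11. Zfp207 (BuGZ), which loads Bub3 at kinetochores, read 920 and 803, a ratio of 0.20, and 3 further probe sets lay at 0.0046, -0.11 and -0.69. Zfp346, a binder of double-stranded RNA, read 126 and 77.7, 1.62-fold higher in DBA/1, and a second probe set was at least 1.11-fold higher in DBA/1. Zfp330, a nucleolar protein, read 185 and 326, 1.76-fold higher in C57BL/6. Zfp598, the ligase that marks collided ribosomes, read 185 and 183, and Zfp830 read 125 and 117 (0.10), with a second probe set at 46.2 and 61.4 (-0.41). Zfp638, which takes part in silencing of incoming retroviral DNA, read 290.0 and 330, a ratio of -0.19, with a second probe set at -0.041. Zfp385a and Zfp593 were undetected.

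All 11 measured genes of the lymphocyte list had a ratio and none reached 1.5-fold in the probe set used. Their median log2 ratio was 0.0065, with 6 higher in DBA/1 and 5 in C57BL/6 (45.5%, against 39.4% of all genes). The extremes were -0.46 and 0.21. Zfp318, required in B cells for the long transcript that yields IgD, had the lowest ratio (74.2 in DBA/1 and 102 in C57BL/6). Of 7 B cell markers, 6 were higher in DBA/1. Zfp292 read 241 and 293, and its 4 probe sets lay between -0.62 and -0.18. Zfp281 (447 and 516) and Zfp131 (258 and 289) were at -0.21 and -0.17, and Zfp91 (292 and 280), a ubiquitin ligase of the alternative NF-kappaB pathway, was at 0.060, with a second probe set at -0.034 and another at least 1.21-fold higher in C57BL/6. Zfp106 read 304 and 263, a ratio of 0.21, but its other detected probe sets were at -0.51 and at least 1.66-fold higher in C57BL/6, so the gene's direction depended on the probe set. Zfp64, Zfp35 and Zfp319 lay between 0.0065 and 0.11, Zfp90 was at least 1.10-fold higher in DBA/1, and Zfp395 was at least 1.12-fold higher in C57BL/6.

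Of 14 genes of development and stem cells, 5 (35.7%) had a ratio, against 52.6% of all Zfp-named genes and 56.0% of all genes. The 9 undetected were Zfp42 (Rex1, a pluripotency marker), Zfp57, Zfp219, Zfp369, Zfp423, Zfp467, Zfp503, Zfp521 and Zfp704. Of the 5 with a ratio, Zfp148 read 411 and 400, with further probe sets between -0.36 and 0.048, and Zfp322a 90.4 and 86.9. Zfp703 lay at 0.33. Zfp566 and Zfp568 are given with their run.

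The list of general transcription and genome upkeep genes had 5 measured members. All 4 with a ratio were higher in C57BL/6, against 39.4% of all genes, with a median of -0.51. Beside Zfp644, Zfp451, a SUMO ligase, read 98.4 in DBA/1 and 142 in C57BL/6, a ratio of -0.53. Zfp276 read 56.6 and 79.7 (-0.49), and its second probe set was at least 1.27-fold higher in C57BL/6. Zfp410, whose main known target is the remodeller gene Chd4, read 159 and 183 (-0.20), and Chd4 itself read 255 and 321 (-0.33). Zfp532 was undetected.

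Few of the KRAB genes with known targets were measured. Zfp445, a guardian of imprints, read 163 and 194.8, with probe sets at -0.26 and -0.47. Zfp932, a silencer of endogenous retroviruses, read 136 and 151 (-0.15). Zfp568, a repressor of a placental Igf2 transcript, was the other with a ratio, higher in DBA/1 as given above, and Zfp57 was undetected. Of the corepressor machinery that KRAB proteins use, 21 of 23 measured genes had a ratio, with a median of -0.032. Of the 21, 14 were higher in C57BL/6 (66.7%, against 39.4% of all genes), 7 in DBA/1 and none beyond 1.5-fold. Trim28 itself read 409 and 463 (-0.18) and the methyltransferase Setdb1 141 and 145 (-0.032). The largest differences were those of Morc3 (-0.49), Uhrf1 (0.46), Cbx5 (heterochromatin protein 1 alpha, 0.42) and Ehmt2 (G9a, 0.39).

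**Figure D4:**
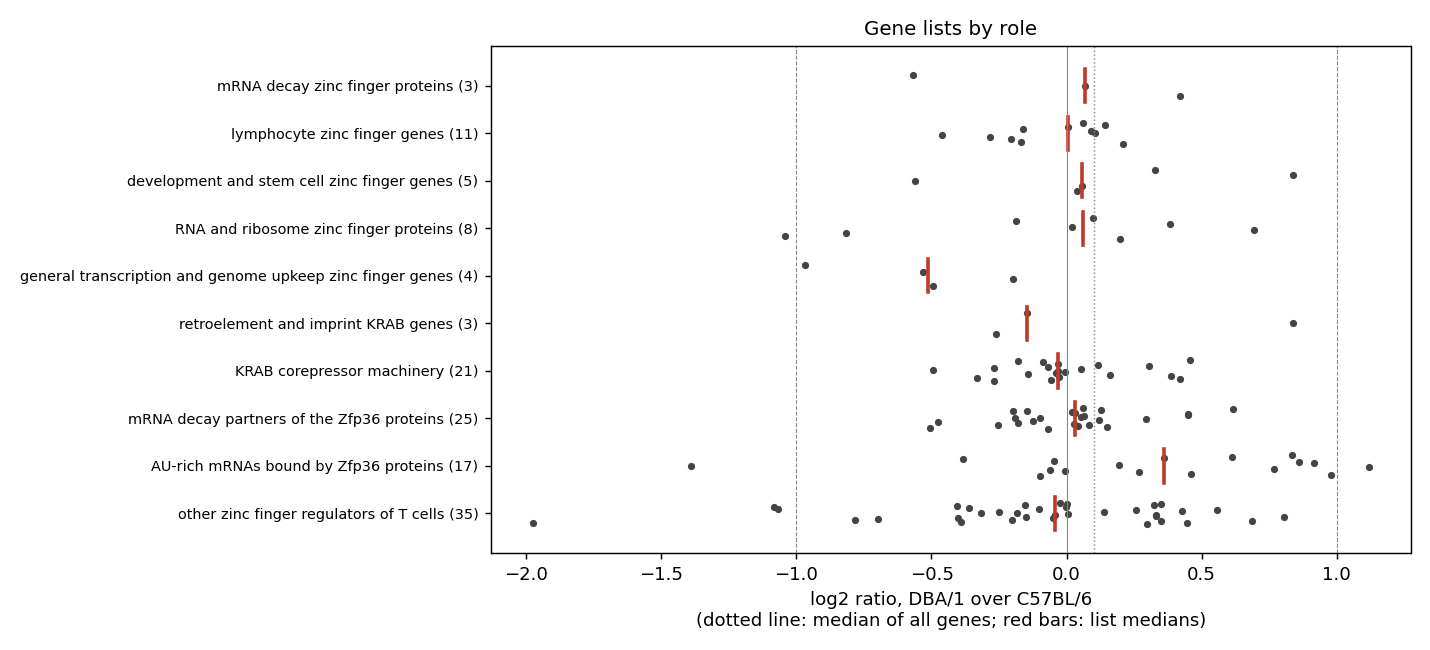
Log2 ratio of DBA/1 over C57BL/6 (horizontal) for each gene with a ratio, grouped by role with the number of genes in brackets, where each point is 1 gene and red bars are list medians. The list of general transcription and genome upkeep genes has its median at -0.51 and that of AU-rich mRNAs at 0.36, with the dotted line at the median of all genes (0.10).

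Zinc finger regulators of T cells that carry other names ranged from -1.98 to 0.80 in log2 ratio, and the Zfp-named genes from -1.74 to 1.08. Of 41 measured, 35 had a ratio, 20 higher in C57BL/6 (57.1%, against 39.4% of all genes) and 15 in DBA/1, with a median of -0.041. At least 2-fold, 3 were higher in C57BL/6 (8.57%, against 1.90% of all genes) and 0 in DBA/1 (against 3.84%). Bcl11b, needed for T cell identity, read 331 on the DBA/1 array and 1304 on the C57BL/6 array, 3.93-fold higher in C57BL/6. Zbtb20 (80.6 and 171) and Sp4 (51.9 and 109) were 2.12-fold and 2.10-fold higher in C57BL/6, and Klf10, a target of TGF-beta, was 1.75-fold higher in DBA/1 (92.9 and 53.2). In DBA/1 the CD4 T cell markers summed to 0.952 of their C57BL/6 level and the CD8 T cell markers, all 5 lower in DBA/1, to 0.384, and their part in these values was not tested.

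Of the remaining Zfp-named genes at or over the 75th percentile of an array, Zfp871 (478 in DBA/1 and 569 in C57BL/6), Zfp869 (136 and 209) and Zfp472 (152 and 192) were higher in C57BL/6, at log2 ratios of -0.25, -0.62 and -0.34. On the other side Zfp362 read 311 and 247 (0.33), Zfp275 260 and 243 (0.098) and Zfp110 221 and 200 (0.14). Dimmer genes with larger ratios were Zfp654 (-0.69), Zfp958 (77.1 and 45.3, 1.70-fold higher in DBA/1), Zfp810 (0.41), Zfp87 (0.40) and Zfp825 (0.39, with a second probe set at 0.052). Zfp33b read 3.01 and 48.95, at least 1.30-fold higher in C57BL/6, and Zfp930 read 48.9 and 22.7, at least 1.28-fold higher in DBA/1.

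Where a gene had more than 1 detected probe set, these often disagreed about small differences. Of 27 such Zfp-named genes, all probe sets were lower in DBA/1 for 13, higher for 3, and mixed for 11. The same split was not counted over all genes, so it has no background to be read against. No gene had probe sets in opposite directions with 1 beyond 2-fold. In the 22 that have a pair above both array medians the difference had an SD of 0.35, against 0.43 for all genes, and the pair went the same way in 15 (68.2%, against 68.0% of all genes). The widest gap was in Zfp386, at -0.17 in the brighter probe set (270 and 303) and -1.19 in the other (81.2 and 185). Zfp280d had 225 and 268 in its brighter probe set (-0.25), and another was at least 2.05-fold higher in C57BL/6. Zfp790 lay at -0.40 and -0.95.

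**Figure D5:**
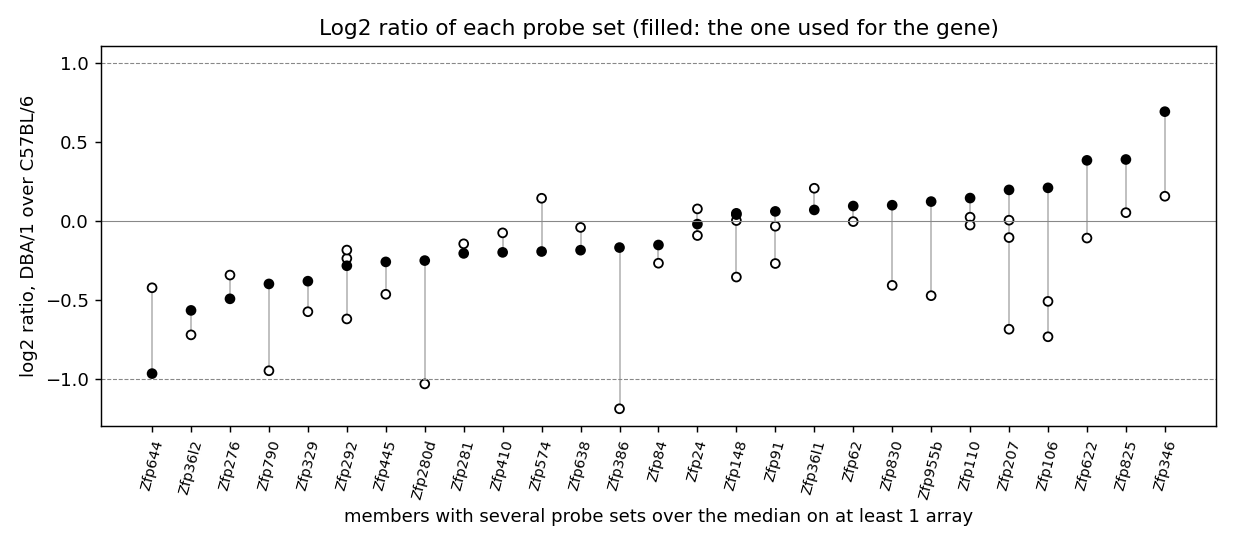
Log2 ratio of DBA/1 over C57BL/6 (vertical) of every detected probe set of the 27 Zfp-named genes with more than 1, ordered by the probe set used for the gene (filled), with open circles for the others dashed lines at 2-fold, and signals under the median raised to it. Zfp386 spans from -0.17 to -1.19, and for Zfp106, Zfp207 and Zfp622 the probe sets lie on both sides of 0.

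The windows before the starts of Zfp-named genes are described here by their letters, with no test. Promoter entries were found for 139 of the 173. The ETS core CCGGAA, searched on both strands, was present in 43 of 139 (30.9%), against 19.0% of 9882 genes on the array and 12.2% of all 27025 promoters in the table. CCAAT was present in 46.0%, against 35.8% of array genes and 34.5% of all, and the GC box GGGCGG in 44.6%, against 53.2% and 32.9%. CACGTG was present in 6.47% (7.74% of array genes), TATAAA in 6.47% (9.14%) and the AP-1 motif TGANTCA in 5.04% (5.52%), and the cAMP response element TGACGTCA in none (2.32% of array genes). The median number of CG dinucleotides was 12 in Zfp-named windows and 14 in those of array genes. Among detected genes it was 13 for Zfp-named genes and 17 for all, and among undetected genes 11 and 8. For the ETS core the ratios were close: the 23 Zfp-named genes with a ratio and the core had a median log2 ratio of -0.15 and the 50 without it -0.17. With CCAAT the median was -0.050 (37 genes) and without it -0.23 (36 genes). With the GC box it was -0.18 (42 genes) and without it -0.15 (31 genes). A match of letters is a description of the reference sequence and not evidence of a bound site.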

How the data were processed

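RNA of CD4+ T cells from the spleen was measured on 1 array per strain. Total RNA (3 µg) was copied with an oligo(dT)-T7 primer into biotin-labelled cRNA, per the labels' protocols. The authors deposited 1 linear intensity per probe set. MAS5, which summarises perfect-match and mismatch probes, is named in the submitters' processing notes, while version, scaling target and genome build were not given in the sources used here. Of 22690 probe sets 64 are controls. Symbols came from the platform annotation, and all 173 genes matched the RefSeq table of GRCm38.p6 by identifier. Another 16 probe sets name a Zfp gene together with other genes and were left out.

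For a gene with several probe sets, the one whose log2 signals had the highest mean was used. Ratios are log2 of DBA/1 over C57BL/6, with signals raised to the array's median. Values were used as deposited, and the median log2 ratio over probe sets over the median on both arrays was 0.085. A fold with 1 side raised is a lower bound, written "at least", and enters medians, counts and figures at that bound. Undetected means under the median on both arrays in the probe set used. Counts use 2-fold and 1.5-fold, and there is no test. The counting was run on simulated data with large changes in bright genes only and with less noise than the probe error here. It therefore checks the code and says nothing about the error of these counts. Promoter windows were the first RefSeq entry of a gene, aligned globally. Runs of neighbours (at most 3 other protein-coding genes between) were defined after the values were seen. Protein sequences were not used here.

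The genes named are the 10 with the largest ratio in each direction, over all and among those at the 75th percentile, the 8 brightest, the members of 6 role lists, and the 4 largest of 4 partner lists; genes of neighbour runs and of the probe set comparison were named after their values were seen. The members and lists were chosen with earlier results of these data known. Alternatives were median centring, quantile normalization, lowess (span 0.3), log2(signal + 32), floors at percentiles 25 and 60 or none, the mean over probe sets, omission of suffixed probe sets, minimum signals at percentiles 75 and 90, and folds of 1.5 and 3. Python 3.11.15, numpy 2.4.6, pandas 2.3.3 and statsmodels 0.14.6 were used.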

Additional observations from a re-analysis of the deposited data

How the results depend on the processing

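The median log2 ratio of the Zfp-named genes stayed below 0, between -0.25 and -0.14, and at least 0.21 below that of all genes, under every alternative run except a minimum signal at percentile 90. There 7 genes remained and the median was 0.070, or -0.093 relative to all genes. The count at least 2-fold higher in DBA/1, 1 as reported, was 0 with median centring, a floor at percentile 60, log2(signal + 32), either minimum signal or a 3-fold limit, 2 without a floor, and 4 with a floor at percentile 25 or at 1.5-fold. The count higher in C57BL/6, 6 as reported, was 13 at 1.5-fold, 3 at 3-fold, 19 with the floor at percentile 25, which admits dimmer genes, 0 at percentile 90, and between 4 and 8 otherwise. Of 52 genes named by the fixed rule, 41 kept their sign under every alternative run and no gene beyond 2-fold reversed. A split by KRAB signature was planned and not run, because it needs protein sequences, which were not used here. No paired analysis was possible because each strain has 1 array. Of the 91 ratios, 7 have 1 signal under the array's median and are lower bounds.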

Other observations

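Other families of genes for proteins with zinc-binding domains did not share one direction, and some leaned as the Zfp-named genes did. Among all genes with a ratio 39.4% were higher in C57BL/6, and among the Zfp-named genes 60.4%. Of 16 Zbtb genes with a ratio, 10 (62.5%) were higher in C57BL/6 and the median log2 ratio was -0.070. At least 2-fold, 2 of them were higher in C57BL/6 and 1 in DBA/1. The 6 Zscan and Zkscan genes had 4 (66.7%) higher in C57BL/6 and a median of -0.11. The 3 Zmynd genes had 2 higher in C57BL/6 and a median of -0.43. Of 8 Zc3h genes 2 were higher in C57BL/6, with a median of 0.13. The 11 Zdhhc palmitoyltransferase genes had 4 (36.4%) higher in C57BL/6 and a median of 0.027. The 9 Klf genes had 4 (44.4%) and a median of 0.0046. Whether any of these families differs from the Zfp-named genes was not tested.

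The 16 probe sets that name a Zfp gene together with other genes read at most 564 in DBA/1 and 503 in C57BL/6. Of the 10 with a signal over the median, 9 were higher in DBA/1, with log2 ratios from 0.016 to 0.80, and 1 was lower at -0.43. Among all genes with a ratio 60.6% were higher in DBA/1. These probe sets thus went against the lean of the Zfp-named genes, and which of the named genes they read was not tested.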
